A study of Homo sapiens with 12 samples.

Results

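The enzymes described here make serine, pass its carbon unit to folate and use it for cysteine. They were taken from a list of 10 genes, PHGDH, PSAT1, PSPH, SHMT1, SHMT2, MTHFD1, MTHFD2, ALDH1L2, CBS and CTH, by the platform's probe annotation: a gene was measured if a probe set was paired with its symbol alone. Of the 10, 8 had 1 such probe set each, among 14232 genes with one. PSPH, the last enzyme of serine synthesis, was paired with 1 probe set shared with NUPR2 and was not analysed here. ALDH1L2 was paired with 0 probe sets and was not analysed here. RNA came from LN229, an established human glioblastoma cell line, on 12 arrays in 4 groups of 3. The groups were 20% oxygen with non-targeting control siRNA, 1% oxygen with the same control siRNA, 1% oxygen with HIF-1A siRNA (target gene HIF1A) and 1% oxygen with HIF-2A siRNA (target gene EPAS1). Every culture was transfected 24 h after seeding, moved to its oxygen tension 48 h later and harvested after a further 16 h, so normoxic cells carried siRNA too. The series has 1 cell line, no normoxic group with either HIF siRNA, and the siRNA sequences were not used here.

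PHGDH, PSAT1 and PSPH convert a glycolytic intermediate, phosphoglycerate, to serine. Serine hydroxymethyltransferase moves a carbon from serine to tetrahydrofolate, leaving glycine: SHMT1 does so in the cytosol and SHMT2 in mitochondria. MTHFD1, a cytosolic enzyme of several activities, and MTHFD2, its mitochondrial counterpart, interconvert the folate-bound carbon, which is spent on purines and thymidylate, and ALDH1L2 oxidises mitochondrial formyl-tetrahydrofolate. CBS joins serine to homocysteine to form cystathionine, and CTH cleaves cystathionine to cysteine, a precursor of glutathione. PHGDH, PSAT1, SHMT2 and MTHFD2 are known targets of ATF4, the transcription factor of the amino acid response, and the HIF factors act through sites with the core ACGTG or GCGTG.

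The 250 bases before the annotated start are shown for both serine synthesis enzymes measured and for the pair of MTHFD isozymes, because the former rose and the latter moved apart in hypoxia, as described below. The sequences are RefSeq's, build GRCh38.p14, 5′ to 3′ on the gene's strand, which is the plus strand for these 4 genes. They lie at chr1:119711684-119711933 (PHGDH), chr9:78296875-78297124 (PSAT1), chr14:64388103-64388352 (MTHFD1) and chr2:74198365-74198614 (MTHFD2). Capitals mark every match, on either strand, to ACGTG and the related core GCGTG, to the E-box CACGTG, which contains the first of these, to the CCAAT box, or to TGATGNAA, the core of the C/EBP-ATF element bound by ATF4.
PHGDH: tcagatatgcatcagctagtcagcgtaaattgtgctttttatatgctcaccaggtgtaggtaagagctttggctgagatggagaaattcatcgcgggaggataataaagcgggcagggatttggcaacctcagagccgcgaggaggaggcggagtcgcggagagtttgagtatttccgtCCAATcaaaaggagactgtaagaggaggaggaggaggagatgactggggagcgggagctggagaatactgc
PSAT1: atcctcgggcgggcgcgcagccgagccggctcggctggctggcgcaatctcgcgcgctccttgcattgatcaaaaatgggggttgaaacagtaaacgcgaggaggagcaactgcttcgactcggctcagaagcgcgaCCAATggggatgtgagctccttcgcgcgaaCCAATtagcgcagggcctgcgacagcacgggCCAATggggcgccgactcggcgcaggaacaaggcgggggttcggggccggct
MTHFD1: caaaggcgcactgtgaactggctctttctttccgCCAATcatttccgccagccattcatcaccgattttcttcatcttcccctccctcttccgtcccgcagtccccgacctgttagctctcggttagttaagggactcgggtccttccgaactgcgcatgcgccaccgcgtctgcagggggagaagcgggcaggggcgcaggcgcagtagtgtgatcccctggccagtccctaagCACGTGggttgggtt
MTHFD2: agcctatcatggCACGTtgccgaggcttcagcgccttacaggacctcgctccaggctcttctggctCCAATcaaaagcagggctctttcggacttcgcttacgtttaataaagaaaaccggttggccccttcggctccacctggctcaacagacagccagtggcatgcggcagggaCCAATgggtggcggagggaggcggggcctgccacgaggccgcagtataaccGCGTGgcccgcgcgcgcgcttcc

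Of the 10 genes, 7 had a promoter entry, all measured here, and SHMT2 had none. TGATGNAA was found in 0 of the 7 and in 3.14% of 35116 promoter windows of the same length. PSAT1 held 3 CCAAT matches, beginning 113, 83 and 52 bases before the start, and no match to the hypoxia cores. MTHFD2 held ACGTG, on the minus strand, 238 bases and GCGTG 23 bases before the start, and MTHFD1 held a palindromic CACGTG 15 bases before it. ACGTG occurred in 18.5%, GCGTG in 32.2% and CACGTG in 6.34% of all windows. CCAAT, searched for only after these sequences had been read, lay in at least 1 window of each of the 7 genes and in 32.0% of all windows. CBS has 3 annotated starts in this table, and 1 of its 3 windows held GCGTG, 76 bases before the start on the minus strand. These are matches of letters in this window only.

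Array medians lay between 6.49 and 6.82 on the deposited log2 scale, and arrays of a group correlated at r = 0.983 to 0.994 across probe sets. The lowest median and the lowest upper quartile, 7.88, belonged to HIF1A siRNA replicate 3. The targeted transcripts were lower where labelled. HIF1A averaged 11.46 ± 0.23 (mean ± SD, n = 3) in hypoxia with control siRNA and 8.33 ± 0.67 with HIF1A siRNA. Among the HIF1A siRNA arrays, replicate 2 kept the most HIF1A transcript, at 9.06. EPAS1 averaged 9.71 ± 0.13 with control siRNA, 7.12 ± 0.11 with HIF2A siRNA and 8.23 ± 0.32 with HIF1A siRNA. The HIF1A siRNA group therefore also had less EPAS1 transcript (log2 change -1.48, limma adjusted p = 3.1e-04). All 5 measured hypoxia markers (ADM, ALDOC, BNIP3, PDK1 and VEGFA) rose in hypoxia and fell with HIF1A siRNA. Of 6 glial markers, VIM, S100B and NES lay at 12.10, 10.76 and 10.27 in normoxia. AQP4 and SLC1A3, at 3.17 and 4.32, lay below every array's lower quartile, and GFAP at 6.23 lay below the array medians. Markers of microglia averaged 4.83 to 5.14 and of endothelium 5.31 to 5.68 over the arrays. Of these, CD68 at 8.26 and CLDN5 at 6.97 in normoxia lay above the array medians. Measured neuron markers averaged 6.28 to 6.66, with SYT1 at 8.45 in normoxia, and oligodendrocyte markers 5.33 to 5.74. None of the microglia, endothelium, neuron or oligodendrocyte genes was called with hypoxia or either siRNA. S100B, also glial, fell by 0.63 in hypoxia and rose by 0.85 with HIF1A siRNA, and NES fell by 0.41 in hypoxia. The mean of 4 fibroblast and pericyte markers lay at 7.09 to 7.22 in hypoxia with control siRNA and at 6.17 to 6.69 with HIF1A siRNA, where RGS5 fell by 1.92 and DCN by 0.65. RGS5 also rose by 0.76 in hypoxia with control siRNA (limma adjusted p = 0.023). The part of these markers in the results below was not tested. RNA was taken from whole cultures, so fewer cells of a kind and less RNA per cell cannot be told apart.

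Hypoxia with control siRNA was set against normoxia with control siRNA to ask which of these enzymes respond to low oxygen. Transcripts of PHGDH and PSAT1 of serine synthesis, of the mitochondrial isozyme MTHFD2 and of CBS, which forms cystathionine, rose. Those of the cytosolic folate enzymes SHMT1 and MTHFD1 fell. The arrays measure transcripts and not enzyme amount or activity. Of 8 members measured, 4 rose and 2 fell at an adjusted p under 0.05 (limma, Benjamini-Hochberg over all genes), against 3.37% of all genes rising and 8.95% falling, and 12.3% called in either direction. The members were chosen with earlier results of these data known, and as a set they were not tested against those shares. The members' median log2 change was 0.44 and that of all genes -0.03. In 7 of the 8 the hypoxic and normoxic values did not overlap, which held for 38.4% of all genes. Rises made up 27.4% of all calls as deposited, 44.1% with quantile normalization, 45.1% with cyclic loess and 34.8% with arrays centred on their medians.

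**Figure D1:**
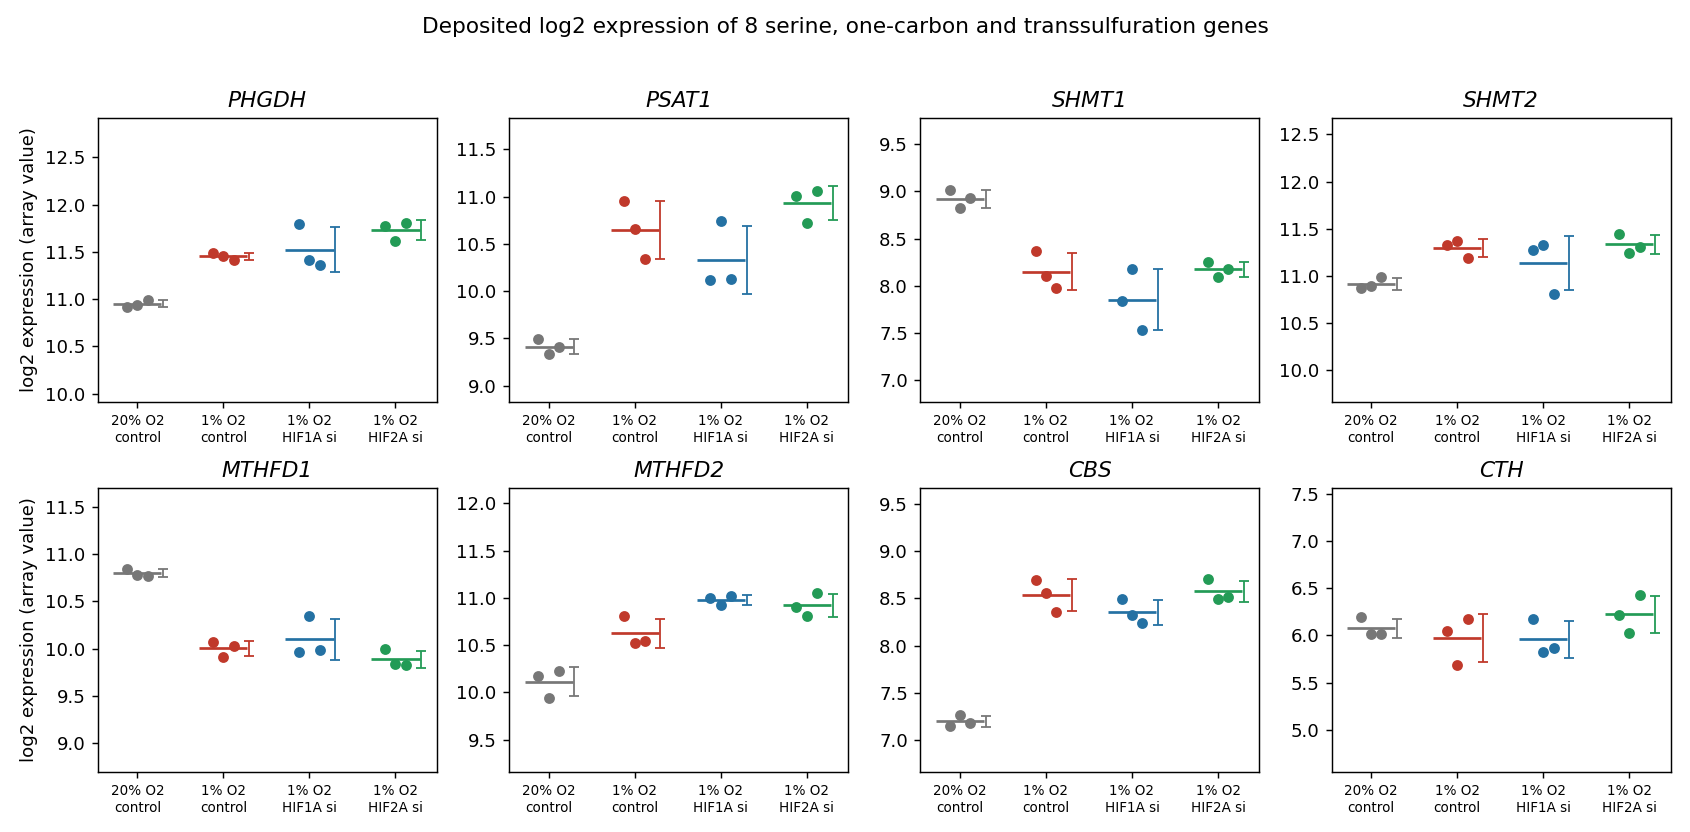
Deposited log2 expression (y axis, 3 log2 units in each panel) of the 8 measured genes in the 4 groups. Points are arrays, horizontal lines group means and bars the SD (n = 3). PHGDH, PSAT1, MTHFD2 and CBS are lower in all 3 normoxic arrays than in any of the 9 hypoxic ones, SHMT1 and MTHFD1 are higher, and CTH overlaps throughout.

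PSAT1, the aminotransferase and second enzyme of serine synthesis, measured 9.49, 9.34 and 9.41 in normoxia and 10.95, 10.65 and 10.34 in hypoxia. The lowest hypoxic array lay well above the highest normoxic one, and the hypoxic arrays were the more spread. It rose 2.35-fold (log2 change 1.23, SE 0.19, adjusted p = 0.00245). PHGDH, the dehydrogenase that opens the pathway, measured 10.92, 10.94 and 10.99 in normoxia and 11.49, 11.46 and 11.41 in hypoxia. Each group was tight and the groups were apart. PHGDH rose 1.42-fold (log2 change 0.50, SE 0.12, adjusted p = 0.0192). That call did not survive the loss of single arrays: without normoxia replicate 1, 2 or 3 the adjusted p was 0.0774, 0.0606 and 0.0580, and without hypoxia control replicate 1 or 2 it was 0.0528 and 0.0680, while the log2 change stayed between 0.48 and 0.52.

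The serine hydroxymethyltransferases moved apart. SHMT1, the cytosolic form, measured 9.01, 8.82 and 8.93 in normoxia and 8.37, 8.11 and 7.98 in hypoxia. Every hypoxic value was lower, and SHMT1 fell to 58.7% of its normoxic level (log2 change -0.77, SE 0.16, adjusted p = 0.00952). SHMT2, the mitochondrial form, measured 10.87, 10.89 and 10.99 in normoxia and 11.32, 11.37 and 11.19 in hypoxia. Its groups did not overlap either, but the difference of 0.38 (SE 0.13, 95% interval 0.08 to 0.67) was not called (adjusted p = 0.0979). SHMT2 was called as a rise without HIF1A siRNA replicate 3 (adjusted p = 0.0174), an array outside this comparison that enters its estimate of spread. The same held when only the 2 groups compared were fitted (0.38, adjusted p = 0.0313). It was also called with quantile normalization (0.48, adjusted p = 0.00809), cyclic loess (0.52, adjusted p = 0.00255) or arrays centred on their medians (0.43, adjusted p = 0.0185).

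The same split was seen in the next step of the folate pathway. MTHFD1, the cytosolic enzyme, measured 10.85, 10.78 and 10.77 in normoxia and 10.07, 9.91 and 10.02 in hypoxia. The groups were narrow and far apart, and MTHFD1 fell to 57.6% (log2 change -0.80, SE 0.11, adjusted p = 0.00153). MTHFD2, the mitochondrial enzyme, measured 10.18, 9.94 and 10.22 in normoxia and 10.80, 10.52 and 10.54 in hypoxia. It rose 1.42-fold (log2 change 0.51, SE 0.12, adjusted p = 0.0157), with no overlap. That call was lost without normoxia replicate 2 (0.42, adjusted p = 0.0660) or hypoxia control replicate 1 (0.42, adjusted p = 0.0521).

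The difference between isozymes was also taken within each array, as the mitochondrial minus the cytosolic log2 value, set to a mean of 0 in normoxia. For SHMT2 minus SHMT1 the hypoxic control arrays gave 0.96, 1.26 and 1.21, against -0.14, 0.07 and 0.07 in normoxia. With HIF1A siRNA this shift averaged 1.29 ± 0.14 and with HIF2A siRNA 1.16 ± 0.03 (mean ± SD, n = 3). For MTHFD2 minus MTHFD1 the hypoxic control arrays gave 1.42, 1.29 and 1.20, against 0.01, -0.15 and 0.14 in normoxia. With HIF1A siRNA the shift was 1.57 ± 0.27 and with HIF2A siRNA 1.72 ± 0.17. In all 3 hypoxic groups, then, the mean of the cytosolic transcript lay below normoxia and that of the mitochondrial one above it. SHMT2 was not called in any of these groups as deposited. In hypoxia with control siRNA the cytosolic changes were the larger in size as deposited: SHMT1 -0.77 and MTHFD1 -0.80, SHMT2 0.38 and MTHFD2 0.51. Over all settings SHMT1 ran from -0.88 to -0.61 and SHMT2 from 0.34 to 0.52, so their order held. MTHFD1 ran from -0.83 to -0.64 and MTHFD2 from 0.42 to 0.69, ranges that overlap in size. As deposited, only for MTHFD with HIF1A siRNA was the mitochondrial change the larger in size (MTHFD2 0.87, MTHFD1 -0.70). With HIF2A siRNA the ranges again overlapped in size (MTHFD2 0.72 to 0.98, MTHFD1 -0.96 to -0.77). The shift shows unequal change and says nothing of which isozyme was the more abundant, since levels of different probe sets cannot be set against each other.

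CBS, the first transsulfuration enzyme, had the largest log2 change among the 8 genes. It measured 7.15, 7.26 and 7.18 in normoxia and 8.69, 8.56 and 8.36 in hypoxia. It rose 2.53-fold (log2 change 1.34, SE 0.11, adjusted p = 5.1e-05), and it was called under all 20 other settings tried, with log2 changes of 1.26 to 1.49. CTH, the next enzyme, measured 6.19, 6.02 and 6.02 in normoxia and 6.05, 5.68 and 6.18 in hypoxia. Its values overlapped, and the change of -0.10 (95% interval -0.44 to 0.23, adjusted p = 0.770) was not called. CTH lay below every array's median, and the table has no background measure by which to judge such a level.

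**Figure D2:**
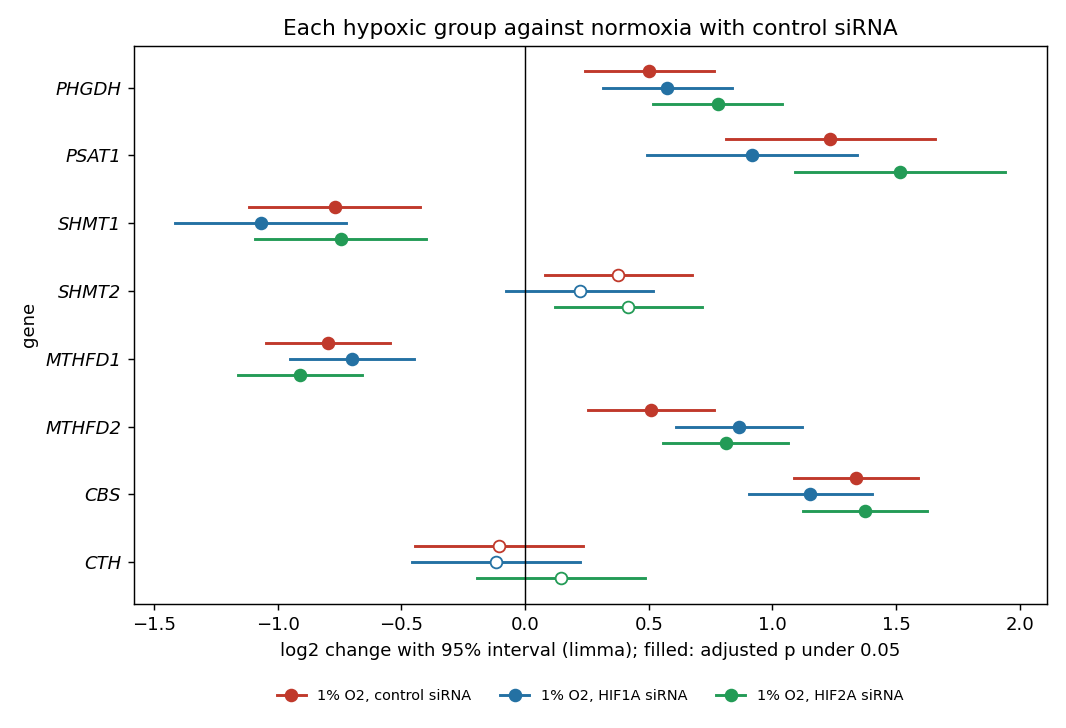
Log2 change (x axis) of each gene in each hypoxic group against normoxia with control siRNA. Points are limma estimates with 95% intervals, filled where the adjusted p is under 0.05. All 3 groups share the normoxic arrays. PSAT1 and CBS lie farthest to the right, and SHMT1 and MTHFD1 lie to the left of 0.

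The other hypoxic groups were set against the same normoxic arrays, as the design text describes. With HIF1A siRNA, 4 members rose and 2 fell, against 4.67% and 30.4% of all genes. In this comparison 35% of genes were called in all. Values of 6 of the 8 did not overlap normoxia, against 54.5% of all genes. PSAT1 measured 10.12, 10.74 and 10.13, 1.89-fold above normoxia (log2 change 0.92, SE 0.19, adjusted p = 0.00681). CBS, at 8.50, 8.32 and 8.24, was 2.23-fold higher (1.15, SE 0.11, adjusted p = 8.2e-04). MTHFD2 was tight at 11.00, 10.92 and 11.02 and was 1.82-fold higher (0.87, SE 0.12, adjusted p = 0.00252). PHGDH, at 11.80, 11.41 and 11.36, was 1.49-fold higher (0.57, SE 0.12, adjusted p = 0.00653). SHMT1 had its widest spread here, 7.85, 8.18 and 7.53, and was at 47.7% of normoxia (-1.07, SE 0.16, adjusted p = 0.00273). MTHFD1, at 9.96, 10.35 and 9.99, was at 61.5% (-0.70, SE 0.11, adjusted p = 0.00342). SHMT2 measured 11.28, 11.32 and 10.81, the last of them below all normoxic arrays and from the array with the lowest upper quartile. Its change of 0.22 (adjusted p = 0.215) was not called, but it was 0.38 without that array (adjusted p = 0.0283), and it was called with quantile normalization (0.44), cyclic loess (0.49) and centred arrays (0.40).

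With HIF2A siRNA, 4 members rose and 2 fell, against 2.85% and 6.79% of all genes, with 9.64% called in all. Values of 7 of the 8 did not overlap normoxia, against 36.7% of all genes. PSAT1 was highest here, at 11.01, 10.72 and 11.06, and was 2.86-fold above normoxia (1.52, SE 0.19, adjusted p = 9.2e-04). CBS measured 8.70, 8.50 and 8.52, a 2.59-fold rise (1.38, SE 0.11, adjusted p = 4.7e-05). PHGDH, at 11.78, 11.61 and 11.80, and MTHFD2, at 10.91, 10.81 and 11.05, were 1.72-fold and 1.75-fold higher (adjusted p = 0.00253 and 0.00181). MTHFD1, at 9.99, 9.84 and 9.83, was at 53.2% of normoxia (adjusted p = 8.3e-04). SHMT1 measured 8.25, 8.10 and 8.18 and was at 59.7% (-0.75, adjusted p = 0.0131). The SHMT1 call was lost without normoxia replicate 1 or 3 (adjusted p = 0.0642 and 0.0543) or HIF2A siRNA replicate 2 (0.0562). SHMT2, at 11.45, 11.24 and 11.31, lay above every normoxic array but was not called (0.42, SE 0.13, adjusted p = 0.0804). It was called as a rise under 6 of 20 other settings, which were quantile normalization (0.52, adjusted p = 0.00649), cyclic loess (0.54, adjusted p = 0.00245), centred arrays (0.46, adjusted p = 0.0162), the 2 groups fitted alone (0.0279), the filter on low probe sets (0.0492) and the loss of HIF1A siRNA replicate 3 (0.0131). CTH, at 6.21, 6.03 and 6.43, overlapped normoxia.

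Each siRNA was then compared with control siRNA in hypoxia, to ask whether the hypoxic level of these enzymes depends on either HIF subunit. HIF1A siRNA changed 0 of the 8 members at an adjusted p under 0.05 with limma, where 11.1% of all genes were called, 10.2% falling and 0.857% rising. Rises made up 7.76% of these calls as deposited, 39.2% with quantile normalization, 31.5% with cyclic loess and 28.6% with arrays centred on their medians. The median of all genes was -0.05 as deposited and 0.07 with quantile normalization or centred arrays. At an unadjusted p under 0.05 the count was 1, MTHFD2. PSAT1 averaged 10.33 ± 0.36 with HIF1A siRNA and 10.65 ± 0.31 with control siRNA. The difference of -0.32 had a 95% interval of -0.74 to 0.11 (adjusted p = 0.279), and replicate 2 of the HIF1A siRNA arrays lay inside the range of the controls. That array also had the highest HIF1A transcript of its group, 9.06 against a group mean of 8.33. Whether the HIF1A transcript left in these arrays bears on the members' differences was not tested. CBS differed by -0.18 (interval -0.43 to 0.07), SHMT2 by -0.16 (-0.45 to 0.14), and PHGDH, MTHFD1 and CTH by 0.07, 0.10 and -0.01. The sign of each of these 5 differences turned under at least 1 of the other settings, with ranges of -0.27 to 0.09 for CBS, -0.25 to 0.01 for SHMT2, -0.07 to 0.19 for PHGDH, -0.03 to 0.29 for MTHFD1 and -0.16 to 0.11 for CTH. SHMT1 differed by -0.30 (interval -0.64 to 0.05, adjusted p = 0.217) and was called as a fall without HIF1A siRNA replicate 2 (-0.46, adjusted p = 0.0476).

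MTHFD2 was higher with both siRNAs. All 3 HIF1A siRNA arrays and all 3 HIF2A siRNA arrays lay above the highest control array, 10.80. The difference was 0.36 with HIF1A siRNA (interval 0.10 to 0.61, adjusted p = 0.0695) and 0.30 with HIF2A siRNA (interval 0.05 to 0.55, adjusted p = 1), neither called. The first was called with quantile normalization (0.47, adjusted p = 0.0170), cyclic loess (0.52, adjusted p = 0.0202) and arrays centred on their medians (0.48, adjusted p = 0.0247). It was also called, at 0.36, with the filter on low probe sets (adjusted p = 0.0471). Both comparisons use the same 3 control arrays. Values without overlap were found for 1 of 8 members with HIF1A siRNA, against 30.8% of all genes, and for 2 of 8 with HIF2A siRNA, against 9.36%.

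HIF2A siRNA changed 0 of the 8 members with limma, and 0.00703% of all genes, which is EPAS1 itself. At an unadjusted p under 0.05 the count was 2, PHGDH and MTHFD2. PHGDH was higher on all 3 arrays than on any control array, by 0.28 (interval 0.02 to 0.54, adjusted p = 1). PSAT1 differed by 0.28 (interval -0.14 to 0.71) and CTH by 0.25 (-0.09 to 0.59). MTHFD1 differed by -0.12 (-0.37 to 0.14), and SHMT1, SHMT2 and CBS by 0.02, 0.04 and 0.04, each with an interval within 0.37 of 0 on either side, and the sign of these last 3 turned under some other settings.

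**Figure D3:**
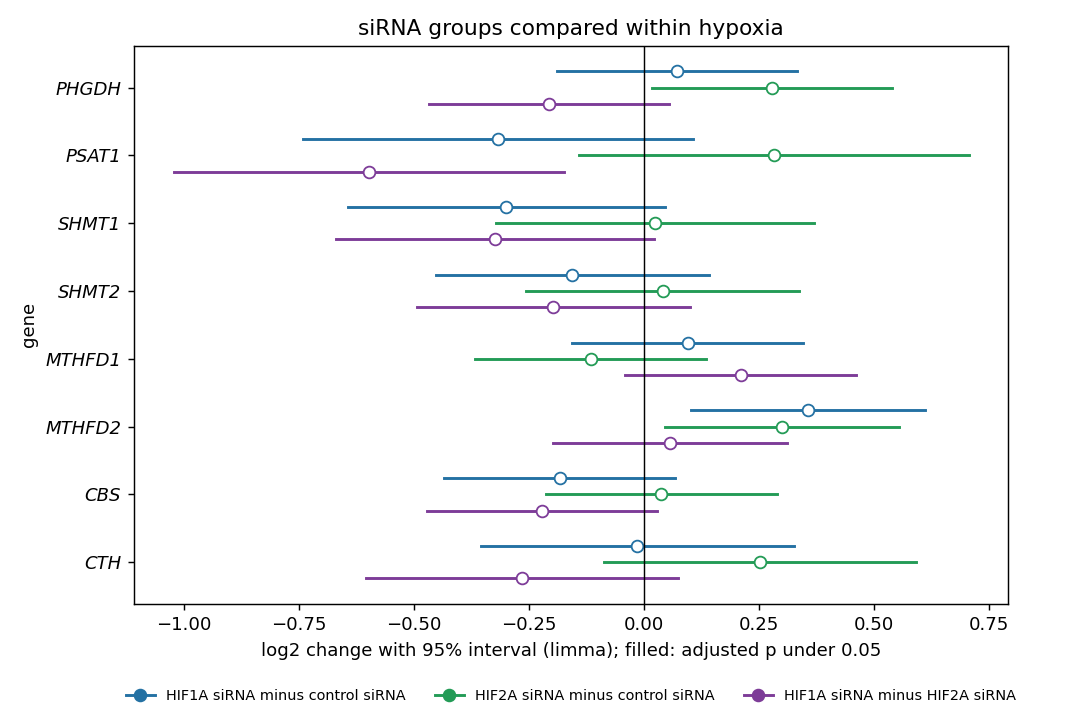
Log2 difference (x axis) of each gene between siRNA groups in hypoxia. Points are limma estimates with 95% intervals; open points have an adjusted p of 0.05 or more, as all do here. The comparisons of each siRNA with control share the control arrays. MTHFD2 lies above 0 with both siRNAs, and PSAT1 has the largest difference between them.

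The siRNA groups were also set directly against each other. HIF1A siRNA against HIF2A siRNA gave 0 of 8 members called with limma, where 9.43% of all genes were (0.899% higher and 8.53% lower), and 1 of 8 at an unadjusted p under 0.05. That was PSAT1, which was lower with HIF1A siRNA by 0.60 (interval -1.02 to -0.17, adjusted p = 0.0713). PSAT1 was called, at -0.60, with the filter on low probe sets (adjusted p = 0.0391) and with averaged probe sets (adjusted p = 0.0491). Without HIF1A siRNA replicate 2, whose 10.74 lay just above the lowest HIF2A siRNA array, the difference was -0.81 (adjusted p = 0.0116). SHMT1 differed by -0.32 (adjusted p = 0.176) and was also called without that array (-0.49, adjusted p = 0.0409). PHGDH differed by -0.21 and was called without HIF1A siRNA replicate 1 (-0.34, adjusted p = 0.0402). MTHFD1 was higher with HIF1A siRNA by 0.21 (adjusted p = 0.217), and was called as higher with quantile normalization (0.42, adjusted p = 0.0368), cyclic loess (0.42, adjusted p = 0.0380) and centred arrays (0.35, adjusted p = 0.0497). The values of CBS did not overlap but all but touched, at 8.4977 for the highest HIF1A siRNA array and 8.4978 for the lowest HIF2A siRNA array. The difference of -0.22 (interval -0.47 to 0.03, adjusted p = 0.198) was not called and ran from -0.29 to 0.06 over the other settings. Non-overlap held for 30.5% of all genes.

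Ordered by mean, PSAT1 was highest with HIF2A siRNA, then control siRNA, then HIF1A siRNA in hypoxia, with overlapping values between neighbours, and lowest in normoxia without overlap. CBS and SHMT2 had the same order, but SHMT2 with HIF1A siRNA overlapped normoxia. PHGDH ran from HIF2A siRNA through HIF1A siRNA and control siRNA to normoxia, and MTHFD2 from HIF1A siRNA through HIF2A siRNA and control siRNA to normoxia, the last 3 of these without overlap. SHMT1 and MTHFD1 were highest in normoxia without overlap with the next group, and their hypoxic groups overlapped as neighbours. All neighbours overlapped for CTH.

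The genes with the most similar course over the 12 arrays were found by the root mean square difference of log2 values, each gene set to a normoxic mean of 0. For PSAT1 the closest gene was CBS (0.24), followed by LRP1, a lipoprotein receptor (0.25), and PRELP, a matrix protein (0.29). For PHGDH they were the cytolinker PLEC (0.15), the alanyl-tRNA synthetase AARS1 (0.15) and the lens filament gene BFSP1 (0.16). For MTHFD2 they were BFSP1 (0.18), PHGDH (0.19) and AARS1 (0.21). CTH, which hardly moved, was closest to ARHGEF10, WDPCP and SH3RF1 (0.08, 0.09 and 0.09).

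Neighbouring pathways were read from lists of the other genes, whose counts stand beside 3.37% of all genes rising and 8.95% falling in this comparison. In lists this short the share called rests on few genes and is imprecise, and no list was tested against those shares. Of 11 measured folate genes (16 listed), 0 rose and 2 fell in hypoxia (median -0.29). ATIC, of purine synthesis and a user of formyl-folate, fell (log2 change -0.95, SE 0.14, adjusted p = 0.00197). TYMS, which makes thymidylate, fell by 0.67 (adjusted p = 0.0170), a call lost without normoxia replicate 1 or 3 or hypoxia control replicate 2 or 3 (highest adjusted p 0.0651). MTHFD2L, another mitochondrial MTHFD isozyme, stood at -0.39 and was not called (adjusted p = 0.0525). MTHFD1L, also in the list, was not among the measured genes. Of 6 measured glycine genes (11 listed), 0 rose and 2 fell (median -0.33). GLDC, the glycine decarboxylase of the glycine cleavage system, fell from 7.12 to 6.02 (-1.10, SE 0.17, adjusted p = 0.00199). DLD, its lipoamide dehydrogenase, fell by 0.65, a call lost without normoxia replicate 1 or 3 or hypoxia control replicate 2 (highest adjusted p 0.0962).

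Of 11 measured genes of the methionine cycle and salvage (15 listed), 0 rose and 3 fell (median -0.46). ADI1, of methionine salvage, fell by 1.13 (SE 0.18, adjusted p = 0.00238). MAT2A, which makes S-adenosylmethionine, fell by 0.83 (SE 0.13, adjusted p = 0.00211). AHCYL1 fell by 0.45 (adjusted p = 0.0421), a call lost with cyclic loess and without any one normoxia, hypoxia control or HIF2A siRNA array (highest adjusted p 0.158). MTR, the methionine synthase that remethylates homocysteine, stood at 0.50 and was not called (adjusted p = 0.134).

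Downstream of CTH, 13 of 14 listed genes of cysteine, sulfide and glutathione handling were measured, of which 1 rose and 4 fell (median -0.09). GCLM and GCLC, the subunits of glutamate-cysteine ligase, fell by 1.06 and 0.71 (adjusted p = 0.0149 and 0.0214), and both calls were lost without normoxia replicate 1 or 3 or hypoxia control replicate 2 (highest adjusted p 0.0692 and 0.0985). Glutathione reductase GSR fell by 0.81, a call lost without any normoxia array or hypoxia control replicate 2 or 3 (highest adjusted p 0.116). The sulfurtransferase TST fell by 0.67 (SE 0.10, adjusted p = 0.00155). CHAC1, which degrades glutathione, rose by 0.88, a call lost without any of the 6 arrays compared (highest adjusted p 0.104). SLC7A11, the cystine transporter, stood at 0.12 (adjusted p = 0.712). Of 5 measured genes linked to NRF2 (8 listed), 1 fell, GCLM again, and 0 rose (median -0.29).

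Of 9 genes in the amino acid transporter list, 3 rose and 0 fell (median 0.27). The list includes the citrate carrier SLC25A1, which stood at -0.20 and was not called. SLC38A5, a carrier of serine and glutamine, rose by 0.86 (SE 0.11, adjusted p = 8.3e-04), SLC1A4, a serine and alanine carrier, by 0.67 (adjusted p = 0.00719) and SLC1A5 by 0.59 (adjusted p = 0.0108). SLC1A5 lost the call when its probe sets were averaged (0.35, adjusted p = 0.0582). SFXN1, the mitochondrial serine carrier, stood at -0.45 and was not called (adjusted p = 0.0747). Of 10 ATF4-linked genes, 4 rose and 0 fell (median 0.40). STC2 rose by 1.40, TRIB3 by 0.94 and asparagine synthetase ASNS by 0.89 (adjusted p = 5.5e-04, 3.5e-04 and 3.3e-04). NUPR1 rose by 0.58 (adjusted p = 0.0447), lost without any normoxia or HIF2A siRNA array, hypoxia control replicate 1 or 2, or HIF1A siRNA replicate 1 (highest adjusted p 0.174). The transcript of ATF4 itself, at 7.08 and 7.13, was not called (0.05, adjusted p = 0.848).

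**Figure D4:**
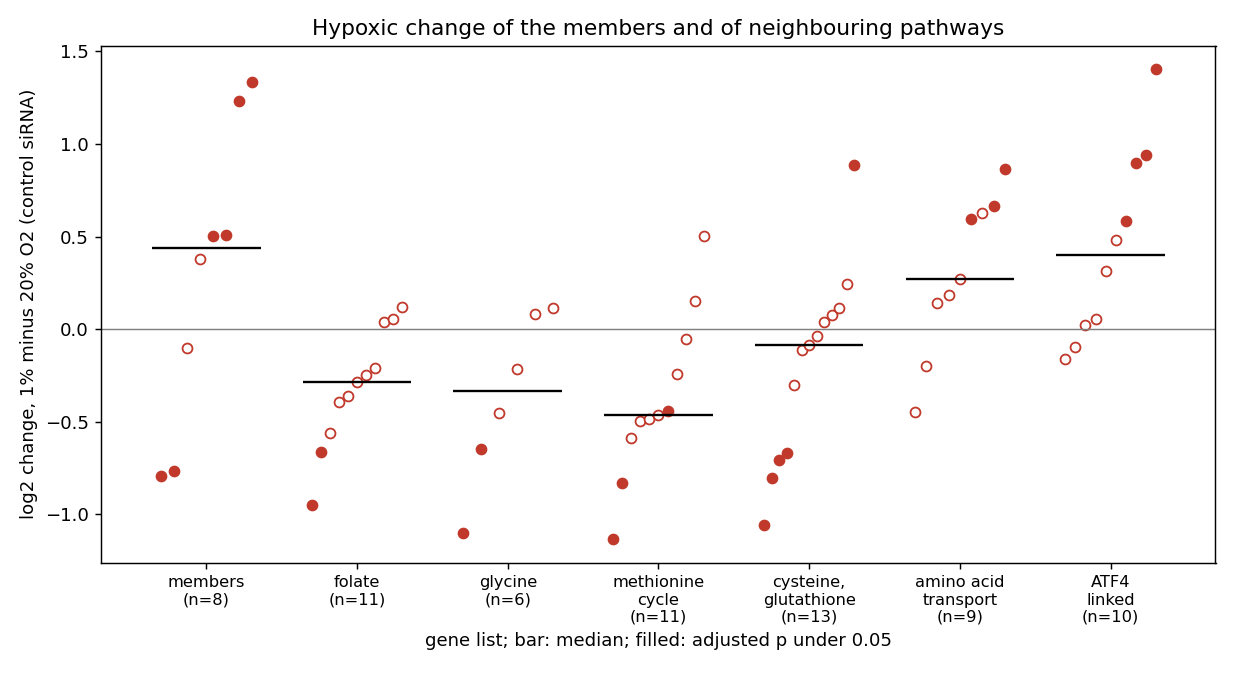
Log2 change in hypoxia with control siRNA against normoxia (y axis) for the 8 members and 6 neighbouring gene lists. Each point is a gene, filled where the adjusted p is under 0.05, and bars are medians. The folate, glycine and methionine lists have falls and no rises, with medians of -0.29, -0.33 and -0.46, while transporters and ATF4-linked genes have rises and no falls.

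With HIF1A siRNA against control siRNA, 5 of the 64 genes in these lists were called as deposited. Of all genes 11.1% were called, 10.2% falling and 0.857% rising. Calls in the other direction appeared under other scalings. ATIC, at 0.34 as deposited, was called as higher with quantile normalization, cyclic loess and centred arrays. GCAT, at 0.08 as deposited, was called as higher with quantile normalization and cyclic loess. Over all settings the folate list had 0 to 4 calls. In the folate list 2 of 11 fell, MTHFS (-0.76), which returns formyl-folate to the active pool, and MTFMT (-0.71), which formylates the mitochondrial initiator tRNA. The MTHFS call was lost with a replicate block or the 2 groups fitted alone, and held only without HIF1A siRNA replicate 2 or HIF2A siRNA replicate 2 among arrays left out (highest adjusted p 0.185), and that of MTFMT was lost without any hypoxia control array, normoxia replicate 2 or 3, or HIF1A siRNA replicate 1 or 3 (highest 0.156). In the glycine list GLDC rose by 0.57, a call lost with a replicate block, with the 2 groups fitted alone, and when any array other than normoxia replicate 2 was left out (highest adjusted p 0.148). Of the transporters SLC38A5 fell by 0.82 (adjusted p = 0.00173). Of the ATF4-linked genes STC2 fell by 0.60, but not with quantile normalization, cyclic loess or arrays centred on their medians (highest adjusted p 0.224), nor when any of 9 single arrays was left out, and ASNS and TRIB3 differed by -0.02 and -0.29 without a call. The methionine, cysteine and NRF2 lists had 0 calls with limma as deposited, and 2, 1 and 1 genes at an unadjusted p under 0.05. Over all settings their calls ran from 0 to 2, 0 to 1 and 0 to 1. With HIF2A siRNA, 0 of the 64 genes in these 7 lists were called with limma, and 3 had an unadjusted p under 0.05.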

How the data were processed

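Transcripts of LN229 cells were measured on 12 Affymetrix arrays after whole transcript sense target labelling, per the labels' protocols. The deposited matrix holds a value for each of 22011 probe sets and array, treated as log2 expression. That scale was read from the values (1.14 to 14.3), and base 2 was inferred. Partek and the build hg18 are named in the submitters' processing notes, and for background correction, summarization and normalization the method is not given in the sources used here. No rescaling was made before the tests.

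The platform annotation pairs 14432 probe sets with 1 symbol, 2408 with several and 5171 with none here. For genes with several single-symbol probe sets the one with the highest mean over the 12 arrays was used, leaving 14232 genes. A mean per group was fitted over all arrays and probe sets with limma 3.58.1 (R 4.3.3, plots by matplotlib 3.10.9), with Benjamini-Hochberg adjustment across all 14232 genes, separately for the 6 comparisons. A gene was called, and is said to rise or fall, at an adjusted p under 0.05. SE and 95% intervals are limma's, with n = 3 arrays per group. The code was tested on simulated data. The number of arrays limits the precision. Nothing in the labels states that replicates came from separate cultures; a p-value here therefore reflects the spread of these arrays alone, possibly technical.

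The members and gene lists were chosen with earlier results of these data known. Named genes are all members, HIF1A and EPAS1, and the called genes of each list up to 3 in each direction. The 3 genes nearest in course to PSAT1, PHGDH, MTHFD2 and CTH were also named. TST, NUPR1, ATF4, MTHFD2L, MTR, SLC7A11, SFXN1 and SLC25A1, and the cell type markers named singly, were named after their values were seen. Replicate numbers were not taken as pairs, since not every same-numbered pair of arrays deviated together. Alternatives were quantile normalization, cyclic loess, median centring, a replicate block, fits on the 2 groups compared, a filter on low probe sets, an intensity trend with a robust prior, averaged probe sets and each array left out. Promoter windows were searched for motifs by exact match on both strands.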

Additional observations from a re-analysis of the deposited data

Results flagged for a closer look

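No group had enough arrays for a test of single outlying arrays. The direct comparison of the siRNAs, which tests whether their effects in hypoxia differ, called 0 of the 8 members and 10 of 72 member and pathway genes, all lower with HIF1A siRNA than with HIF2A siRNA, where 9.43% of all genes were called (8.53% lower and 0.899% higher). That direction depends on the scaling: with quantile normalization 44.9% of all calls were higher. The member MTHFD1 (0.42, limma adjusted p = 0.0368) and the list genes ATIC, GCAT and MAT2A were then called as higher. STC2 differed by -0.97 (limma adjusted p = 0.00748) and kept its call under all 20 other settings. SLC38A5 differed by -0.85 (adjusted p = 0.0016) and lost the call only when the 2 groups were fitted alone (0.0548). The other 8 lost theirs under 2 to 14 of the settings. Of glutathione synthesis, GCLM differed by -1.04 and GCLC by -0.62, and the heme oxygenase gene HMOX1 by -0.57. Of folate and methionine metabolism, MTR differed by -0.83, MTHFS by -0.82 and MTFMT by -0.64. Of the ATF4-linked genes, DDIT3 differed by -0.64 and TRIB3 by -0.46.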

How the results depend on the processing

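Of 18 same-numbered pairs of arrays, 5 had deviations from their group means that correlated above 0.1 (r = -0.29 to 0.42), so numbers were not taken as pairs; a replicate block gave 1720 called genes in hypoxia against normoxia and 1266 with HIF1A siRNA against control, and changed no member's call; of the list genes named for HIF1A siRNA, GLDC and MTHFS lost theirs against control and MTFMT and MTHFS against HIF2A siRNA. No called member changed direction under any setting. Fitting only the 2 groups compared gave 137 called genes with HIF1A siRNA against control, 127 for HIF1A against HIF2A siRNA, and 3250 and 2131 for HIF1A and HIF2A siRNA against normoxia. HIF2A siRNA against control gave 4, 4 and 3 genes (1 as deposited) with quantile normalization, cyclic loess and centred arrays. Those 3 scalings and the filter on low probe sets each called 1 member for HIF1A siRNA against control and 1 against HIF2A siRNA, as did averaged probe sets for the latter. With single arrays left out, called genes ranged from 806 to 2465 in hypoxia against normoxia (lowest without normoxia replicate 1, highest without HIF1A siRNA replicate 3), 390 to 2648 with HIF1A siRNA against control, 268 to 2557 against HIF2A siRNA (both highest without HIF1A siRNA replicate 2), and 2361 to 5042 and 588 to 2021 for HIF1A and HIF2A siRNA against normoxia. Called members then ranged from 4 to 7, 0 to 1, 0 to 2, 6 to 7 and 5 to 7 in the same order. Rises were 13.3%, 29.5% and 9.54% of calls for HIF1A siRNA and HIF2A siRNA against normoxia and for HIF1A against HIF2A siRNA, and 51.8%, 46.0% and 44.9% with quantile normalization, 44.8%, 46.5% and 34.2% with cyclic loess, and 46.6%, 33.6% and 37.6% with centred arrays. The cause of these shifts was not tested. The filter left CTH out. With 3 arrays a group, the precision of all values is limited.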
